A study of Homo sapiens with 8 samples.

Results

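The genes of glycolysis and of the response to low oxygen were followed in BJ, an established fibroblast line from human skin, with the long noncoding RNA PURPL overexpressed or knocked down. The 35 genes were taken by name for their function, but with earlier results of these data known. All 35 were found in each of the 3 deposited tables among 59370 genes kept. Of these, 33 passed the filter on low values and were tested among 14977 genes. EGLN3 and CA9 did not pass it. The 8 libraries fall into 4 groups of 2. OE-PURPL cells overexpressed PURPL and PCDNA was their control, together called the overexpression arm below. ASO-PURPL cells had PURPL lowered with an antisense oligonucleotide and ASO-NC was their control, together called the knockdown arm. All groups were the same cell line in serum-containing DMEM, and the labels name no culture in low oxygen, no age or passage, and no separate cultures behind the replicates. The comparisons therefore describe these genes in cells that were not labelled as hypoxic.

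Glycolysis splits glucose into pyruvate in the cytosol. Its early steps spend ATP to phosphorylate and cleave the sugar, its later steps return ATP, and lactate dehydrogenase turns pyruvate into lactate. When oxygen is scarce, the alpha subunits of the hypoxia-inducible factors (HIF) escape the prolyl hydroxylases that mark them for degradation through VHL, and HIF then raises most glycolytic genes together with genes such as ADM, BNIP3 and CA9. Because the hydroxylases act on HIF protein, the mRNA level of HIF1A is not a measure of HIF activity.

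Levels are given in FPKM, fragments scaled by transcript length and library size, so they can be compared between genes. Sequencing depth is unknown, so the counting error of the levels cannot be given. Between 13442 and 14598 genes per library reached 1 FPKM. PURPL itself stood at 153 and 238 FPKM in OE-PURPL, compared with 5.42 and 5.73 FPKM in PCDNA, and at 6.31 and 4.24 FPKM in ASO-PURPL, compared with 16.2 and 9.74 FPKM in ASO-NC. All 14 fibroblast markers passed the filter, among them COL1A1, DCN, THY1 and VIM. The keratin genes KRT1 and KRT5 and the lymphocyte genes CD3D and MS4A1 were at or under 0.01 FPKM in every library. Other markers were present at low levels, with KRT10 at 7.44 to 35.3 FPKM, KRT15 at 1.02 to 2.27 FPKM and MITF, of the melanocyte list, at 5.39 to 14.2 FPKM. The keratinocyte markers summed to 15.0 and 15.1 FPKM in OE-PURPL, compared with 10.2 and 10.9 FPKM in PCDNA, and to 29.7 and 10.7 FPKM in ASO-PURPL, compared with 37.4 and 11.7 FPKM in ASO-NC. The 4 of them that were tested were higher in both OE-PURPL pairs (median log2 estimate 0.38), against 32.6% of all genes. The filter on low values counts the OE-PURPL libraries, so it favours low markers that are high there. No conclusion is drawn from this count. The 11 immune cell markers summed to 287 to 356 FPKM in the overexpression arm and to 60.5 to 84.8 FPKM in the knockdown arm, nearly all of it the lysosomal gene CD68, which fibroblasts also make. In bulk RNA, fewer cells of a type and less RNA per cell cannot be told apart, and the part of these markers in the results was not tested.

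The genes spanned from listed zeros to 1885 FPKM. The highest was GAPDH, the dehydrogenase that opens the ATP-yielding phase, at 1307 to 1885 FPKM over the 8 libraries. Next came PKM, the pyruvate kinase of most tissues, at 855 to 1296 FPKM, and ALDOA, the main aldolase, at 649 to 853 FPKM. The ranges of these 3 genes overlapped neither one another nor that of the next gene, the lactate exporter SLC16A3, at 288 to 583 FPKM. From there down the order was not fixed, since the ranges of ENO1, PGAM1, ADM, LDHA, TPI1 and LDHB overlapped one another and that of SLC16A3 overlapped each of them except LDHB, at 183 to 278 FPKM. Across the list, 12 genes averaged at least 100 FPKM, 16 lay between 10 and 100, 5 between 1 and 10, and 2 below 1. Those 2 were EGLN3, an oxygen-sensing prolyl hydroxylase, at 0.0562 to 0.503 FPKM, and CA9, a membrane carbonic anhydrase induced by hypoxia in many tumours, at 0 to 0.168 FPKM. Together the 17 glycolytic and lactate dehydrogenase genes held 1.10% and 1.03% of all FPKM in OE-PURPL, 1.01% and 0.961% in PCDNA, 0.872% and 1.04% in ASO-PURPL, and 0.882% and 1.10% in ASO-NC. In the knockdown arm this share differed more between the replicates than between ASO-PURPL and ASO-NC.

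**Figure D1:**
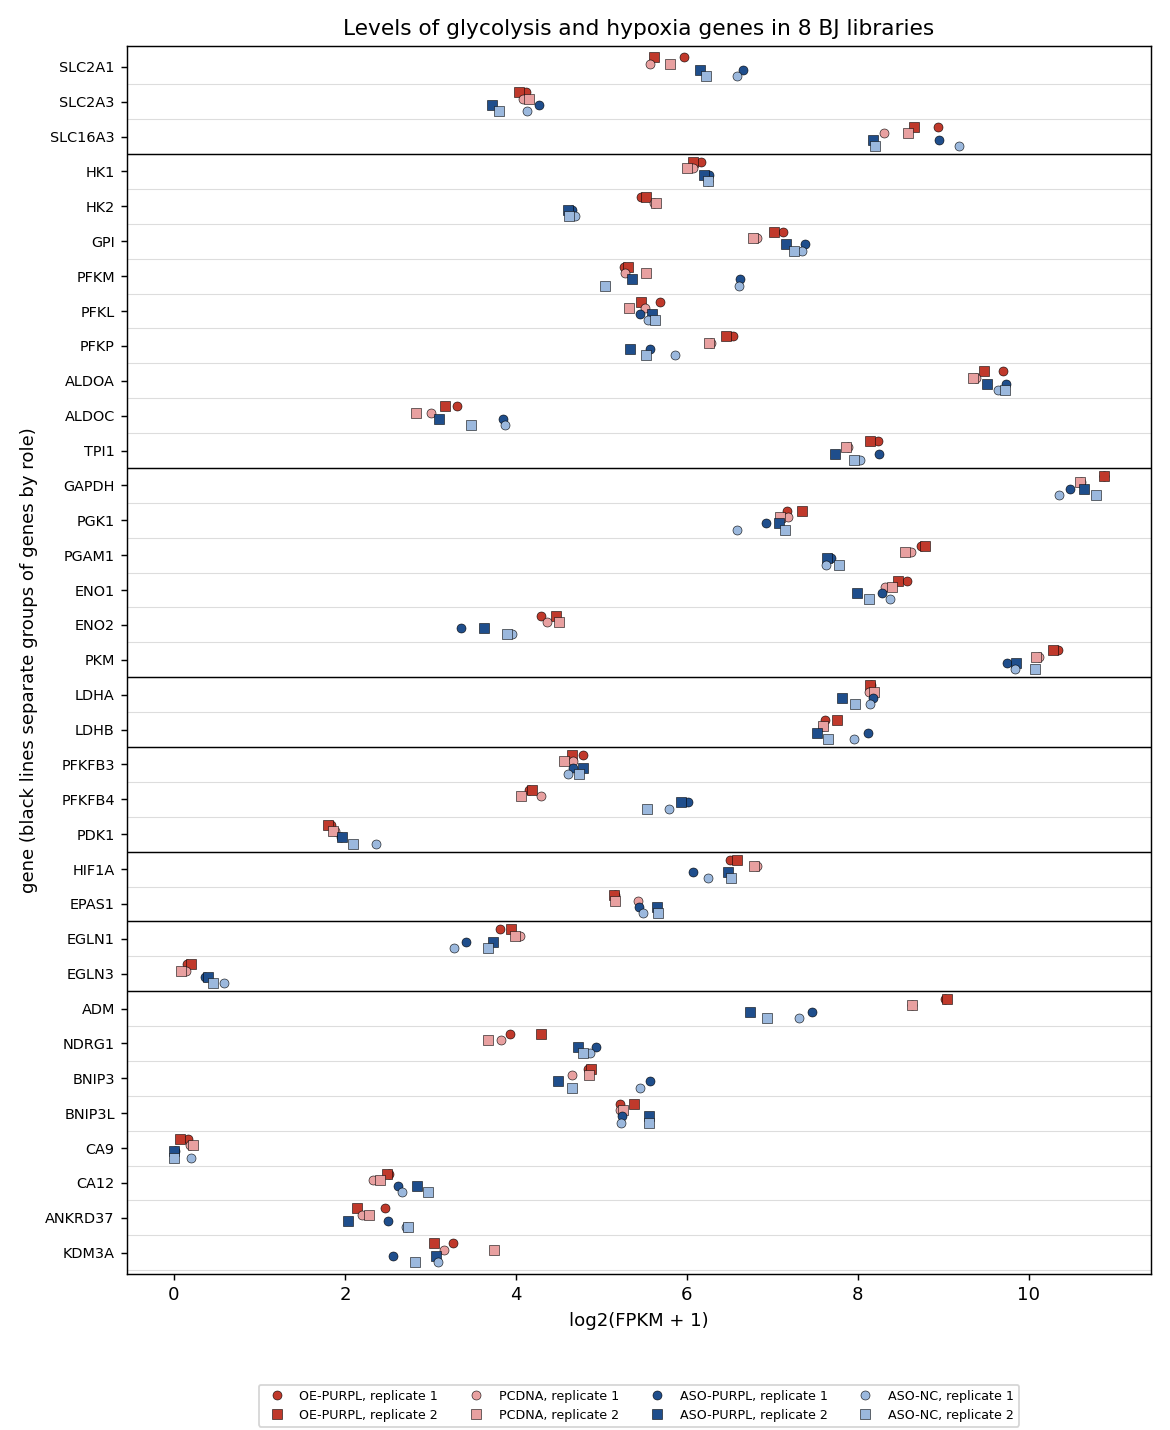
Levels of the 35 genes in FPKM on a log axis, grouped by role, with a point for each of the 8 libraries coloured by group. GAPDH, PKM and ALDOA lie highest and EGLN3 and CA9 lowest, and ADM, HK2, PGAM1, PFKFB4 and NDRG1 show the overexpression and knockdown arms apart.

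The promoters of HK2, PFKFB4 and ADM are shown because these genes, a hexokinase, a regulator of phosphofructokinase and a vasodilator peptide, gave, with NDRG1, the largest differences between PCDNA and ASO-NC that held in both replicates. The windows run from 250 bases before to 50 after the RefSeq start on GRCh38.p14, 5′ to 3′ on the gene's strand, and capitals mark ACGTG or GCGTG, the core of the hypoxia response element, on either strand (CACGT and CACGC on the other strand). The HK2 window is chr2:74833877-74834176 on the plus strand, that of PFKFB4 chr3:48556754-48557053 on the minus strand, and that of ADM chr11:10304823-10305122 on the plus strand. In GENCODE 29, HK2 spans 74833981 to 74893359, PFKFB4 48517684 to 48562015 and ADM 10304680 to 10307397, all 3 protein-coding. The windows of PFKFB4 and ADM thus lie inside the span of all annotated transcripts.
HK2: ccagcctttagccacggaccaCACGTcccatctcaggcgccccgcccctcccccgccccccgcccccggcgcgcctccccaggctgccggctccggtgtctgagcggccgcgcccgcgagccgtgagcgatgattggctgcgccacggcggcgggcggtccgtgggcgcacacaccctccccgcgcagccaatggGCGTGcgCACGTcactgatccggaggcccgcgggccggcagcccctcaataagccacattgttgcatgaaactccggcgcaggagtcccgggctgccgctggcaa
PFKFB4: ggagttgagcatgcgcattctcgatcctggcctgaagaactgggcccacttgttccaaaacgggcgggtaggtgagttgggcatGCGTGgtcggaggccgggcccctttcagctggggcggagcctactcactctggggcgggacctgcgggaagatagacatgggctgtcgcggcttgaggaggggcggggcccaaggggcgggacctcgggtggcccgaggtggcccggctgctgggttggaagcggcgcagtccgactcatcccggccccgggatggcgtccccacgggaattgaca
ADM: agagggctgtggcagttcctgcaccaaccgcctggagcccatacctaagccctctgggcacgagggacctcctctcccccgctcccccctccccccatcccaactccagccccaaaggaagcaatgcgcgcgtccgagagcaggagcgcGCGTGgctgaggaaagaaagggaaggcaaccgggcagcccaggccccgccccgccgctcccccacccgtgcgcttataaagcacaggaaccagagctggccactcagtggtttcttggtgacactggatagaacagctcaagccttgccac
HK2 holds 3 matches, whose first bases lie at positions -229, -55 and -48 from the start. PFKFB4 and ADM each hold a single GCGTG, at position -166 in PFKFB4 and -101 in ADM. Of the 32 genes of the list with a promoter in the table, 24 (75%) held at least 1 match, against 48.4% of all 27305 promoters and 63.3% of the 10516 promoters of tested genes. The promoters of the list were also richer in G and C, with a median of 69.7% against 65.3% for tested genes, and both motifs are rich in these bases. ACGTG itself stood in 12 of the 32 (37.5%) against 21.6% of all promoters, and CACGTG, which is also an E-box, in 5 of the 32 against 7.43%. For these motifs no share among promoters of tested genes was computed. All promoters had a median of only 58.3% G and C. A match describes the letters of the window and not binding. No promoter was matched for SLC2A3, NDRG1 and BNIP3L.

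After overexpression of PURPL no gene of the list passed the test, and its largest differences were modest. ADM, SLC16A3, NDRG1, ALDOC and TPI1 stood highest relative to PCDNA, and HIF1A stood lower in both pairs. Of the 33 tested genes 0 passed in either direction (limma, adjusted p under 0.05), where 0.0267% of all genes passed upward and 0% downward. At an unadjusted p under 0.05 there were 4 (GPI, PFKP, ADM and HIF1A), or 12.1%, near the 13.8% of all genes. In both pairs 19 genes (57.6%) were higher than in PCDNA, against 32.6% of all genes, and 7 (21.2%) lower, against 31.1%. The median log2 ratio of the list was 0.12 in the pair of replicate 1 and 0.08 in that of replicate 2, against -0.01 and 0.02 over all genes. These ratios also followed transcript length (Spearman -0.34 and -0.36 over 13339 genes) and GC content (0.46 and 0.37). With that trend removed the mean log2 ratio had a median of 0.064 in the list, against 0.10 as deposited, and with quantile normalization of all libraries and no replicate block it was 0.011.

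Of the transporters, SLC16A3 stood at 489 and 403 FPKM in OE-PURPL, compared with 316 and 384 FPKM in PCDNA. The groups did not overlap, but the log2 ratios were 0.63 and 0.07 (estimate 0.35, SE 0.16, adjusted p = 0.398, limma), so most of the estimate came from replicate 1. SLC2A1, the widespread glucose transporter GLUT1, stood at 61.6 and 48.0 FPKM in OE-PURPL, compared with 46.6 and 54.9 FPKM in PCDNA, higher in the pair of replicate 1 and lower in that of replicate 2. SLC2A3, a high-affinity glucose transporter, had ratios of 0.03 and -0.12.

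In the preparatory phase, 7 of 9 enzymes were higher in both OE-PURPL libraries than in their PCDNA partners, against 32.6% of all genes. TPI1, which interconverts the triose phosphates, stood at 302 and 281 FPKM in OE-PURPL, compared with 235 and 233 FPKM in PCDNA (log2 estimate 0.32, SE 0.13, adjusted p = 0.367, limma). ALDOC, the brain-type aldolase, stood at 8.95 and 8.02 FPKM, compared with 7.01 and 6.10 FPKM in PCDNA (0.33, SE 0.13, adjusted p = 0.366, limma). Neither gene's groups overlapped. GPI, which isomerises glucose phosphate, had ratios of 0.30 and 0.24, PFKP, the platelet-type phosphofructokinase, 0.26 and 0.20, and ALDOA 0.31 and 0.13. PFKL, the liver type, and HK1, the widespread hexokinase, had ratios of 0.08 to 0.16. HK2, the inducible hexokinase, went the other way, at 43.0 and 44.8 FPKM in OE-PURPL, compared with 47.9 and 48.8 FPKM in PCDNA (-0.14, SE 0.08, adjusted p = 0.504, limma), and PFKM, the muscle type, had ratios of -0.01 and -0.21.

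Other processing moved several of these estimates by more than 1.5 times. With the length and GC trend removed, TPI1 was at 0.11, ALDOC at 0.14 and HK2 at -0.08, and with quantile normalization and no replicate block TPI1 was at 0.12, HK2 at -0.20 and ALDOC, little moved, at 0.37.

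In the payoff phase GAPDH stood at 1881 and 1885 FPKM in OE-PURPL, compared with 1571 and 1552 FPKM in PCDNA (0.27, SE 0.13, adjusted p = 0.408, limma). The OE-PURPL libraries lay above the PCDNA libraries by more than either group's spread, in a gene often used to normalise expression. The GAPDH estimate was 0.056 with the length and GC trend removed and 0.17 with quantile normalization and no replicate block. PKM had ratios of 0.22 and 0.19, PGAM1, a phosphoglycerate mutase, 0.12 and 0.24, and ENO1, the widespread enolase, 0.26 and 0.06. ENO2, the neuronal enolase, was lower in both pairs by less than 0.1 (-0.07 and -0.04), and PGK1, the first ATP-making kinase, differed in sign (-0.02 and 0.27). LDHA, the subunit that favours lactate formation, stood at 284 and 283 FPKM in OE-PURPL, compared with 279 and 291 FPKM in PCDNA, and the groups overlapped. LDHB, the heart-type subunit, had ratios of 0.02 and 0.17.

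Among the regulators, PFKFB3 and PFKFB4 make and remove the sugar phosphate that activates phosphofructokinase. PFKFB3 had ratios of 0.13 and 0.09 and PFKFB4 of -0.15 and 0.12. PDK1, the kinase that shuts pyruvate dehydrogenase, stood at 2.56 and 2.50 FPKM in OE-PURPL, compared with 2.69 and 2.64 FPKM in PCDNA. HIF1A stood at 89.6 and 95.4 FPKM in OE-PURPL, compared with 112 and 110 FPKM in PCDNA (-0.26, SE 0.09, adjusted p = 0.336, limma), and the groups did not overlap. That estimate was -0.11 with the length and GC trend removed and -0.40 with quantile normalization and no replicate block. EPAS1, which encodes the other main HIF alpha subunit, had ratios of -0.27 and -0.01, and EGLN1, the main prolyl hydroxylase, of -0.23 and -0.05. The mRNAs of both HIF alpha subunits and of EGLN1 were thus lower in both pairs, as were 31.1% of all genes. Of the 7 tested hypoxia-induced genes 5 were higher in both, as were 32.6% of all genes. None of these genes passed the test. Some of the signs rest on ratios near 0, such as -0.01 for EPAS1 in replicate 2 and 0.005 for BNIP3L in replicate 1.

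Of those 5, ADM had the lowest adjusted p of the list. It stood at 519 and 529 FPKM in OE-PURPL, compared with 396 and 396 FPKM in PCDNA (0.40, SE 0.11, adjusted p = 0.324, limma), with ratios of 0.39 and 0.42. The ADM estimate was 0.19 (adjusted p = 0.614, limma) with the length and GC trend removed and 0.28 with quantile normalization and no replicate block. NDRG1, a stress-responsive cytoplasmic protein, stood at 14.3 and 18.6 FPKM in OE-PURPL, compared with 13.2 and 11.7 FPKM in PCDNA (0.36, SE 0.15, adjusted p = 0.372, limma). Its ratio was 0.10 in replicate 1 and 0.62 in replicate 2. BNIP3 and BNIP3L, receptors that send mitochondria to autophagy, and CA12, a membrane carbonic anhydrase, had ratios of 0.00 to 0.19. ANKRD37, an ankyrin-repeat protein, had ratios of 0.27 and -0.14, and KDM3A, a histone demethylase, 0.11 and -0.70, so each differed in sign between the pairs. EGLN3 stood at 0.114 and 0.152 FPKM in OE-PURPL, compared with 0.102 and 0.0562 FPKM in PCDNA, and CA9 at 0.118 and 0.0499 FPKM, compared with 0.136 and 0.168 FPKM in PCDNA, too low to test.

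After knockdown of PURPL no gene of the list passed the test either. PURPL itself, the target, did not pass it (log2 estimate -1.13, SE 0.16, adjusted p = 0.374, limma). That none passed therefore does not show that the genes of the list were unchanged. ENO2, PFKP, PDK1 and ANKRD37 were lower than in ASO-NC in both pairs and PFKFB4 was higher. In both directions 0 of the 33 tested genes passed (limma, adjusted p under 0.05), as did 0% of all genes upward and 0% downward. At an unadjusted p under 0.05 there were 3 (PFKP, ENO2 and PFKFB4), or 9.09%, near the 8.18% of all genes. In both pairs 5 genes (15.2%) were higher, against 19.3% of all genes, and 13 (39.4%) lower, against 33.4%. The other 15 had opposite signs in the replicates. The median log2 ratio of the list was 0.01 in replicate 1 and -0.09 in replicate 2, against -0.02 and -0.06 over all genes.

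ENO2 had the lowest adjusted p of this comparison, at 9.22 and 11.3 FPKM in ASO-PURPL, compared with 14.5 and 13.9 FPKM in ASO-NC (-0.44, SE 0.12, adjusted p = 0.582, limma). The other enolase and pyruvate kinase were lower in both pairs by less, ENO1 with ratios of -0.10 and -0.13 and PKM with -0.09 and -0.22. PFKP stood at 46.5 and 39.5 FPKM in ASO-PURPL, compared with 57.3 and 44.8 FPKM in ASO-NC (-0.24, SE 0.09, adjusted p = 0.597, limma). Its 2 groups overlapped, since the ASO-PURPL library of replicate 1 lay above the ASO-NC library of replicate 2. PFKP was the only gene of the list with an unadjusted p under 0.05 in both comparisons, higher after overexpression and lower after knockdown. The share of all genes with this was not computed, and both p-values of PFKP use the same SE. Its unadjusted knockdown p (limma) was 0.073 with each comparison fitted alone, 0.090 with the length and GC trend removed and 0.24 with quantile normalization and no replicate block. It was also over 0.05 without the eBayes trend or with centring, and under 0.05 with other pseudocounts, other filters or summed rows. PDK1 stood at 2.88 and 2.90 FPKM in ASO-PURPL, compared with 4.15 and 3.26 FPKM in ASO-NC (-0.27, SE 0.16, adjusted p = 0.658, limma). ANKRD37 stood at 4.67 and 3.10 FPKM in ASO-PURPL, compared with 5.55 and 5.66 FPKM in ASO-NC (-0.45, SE 0.19, adjusted p = 0.619, limma), with most of the difference in replicate 2. With a pseudocount of 5 the estimates were -0.14 for PDK1 and -0.26 for ANKRD37. PFKFB4 stood at 63.8 and 60.0 FPKM in ASO-PURPL, compared with 54.5 and 45.3 FPKM in ASO-NC (0.31, SE 0.11, adjusted p = 0.587, limma), and the groups did not overlap.

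The remaining enzymes and transporters gave small or opposed ratios. SLC2A1 stood at 99.6 and 70.0 FPKM in ASO-PURPL, compared with 95.0 and 74.0 FPKM in ASO-NC, so the replicates of each group lay farther apart than the groups. HK2 stood at 24.3 and 23.3 FPKM in ASO-PURPL, compared with 24.9 and 23.6 FPKM in ASO-NC (-0.02, SE 0.08, adjusted p = 0.958, limma). GAPDH stood at 1431 and 1599 FPKM in ASO-PURPL, compared with 1307 and 1768 FPKM in ASO-NC, and LDHA at 288 and 225 FPKM, compared with 283 and 250 FPKM in ASO-NC. TPI1 (0.22 and -0.22), ALDOA (0.09 and -0.20), PGK1 (0.35 and -0.07) and LDHB (0.16 and -0.14) were higher in the first pair and lower in the second. HIF1A stood at 66.4 and 88.6 FPKM in ASO-PURPL, compared with 74.8 and 90.9 FPKM in ASO-NC (-0.10, SE 0.09, adjusted p = 0.766, limma).

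Of the hypoxia-induced genes, ADM stood at 175 and 106 FPKM in ASO-PURPL, compared with 158 and 121 FPKM in ASO-NC (-0.02, SE 0.11, adjusted p = 0.973, limma), and NDRG1 at 29.6 and 25.4 FPKM, compared with 28.2 and 26.5 FPKM. SLC16A3 stood at 492 and 288 FPKM in ASO-PURPL, compared with 583 and 294 FPKM in ASO-NC. ALDOC had ratios of -0.03 and -0.37. EGLN3 stood at 0.286 and 0.319 FPKM in ASO-PURPL, compared with 0.503 and 0.375 FPKM in ASO-NC. CA9 was listed at 0.01 and 0 FPKM in ASO-PURPL, compared with 0.148 and 0 FPKM in ASO-NC, and 0.01 is the lowest value of the replicate 1 tables. For the genes with opposed signs the pairs give no common direction.

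**Figure D2:**
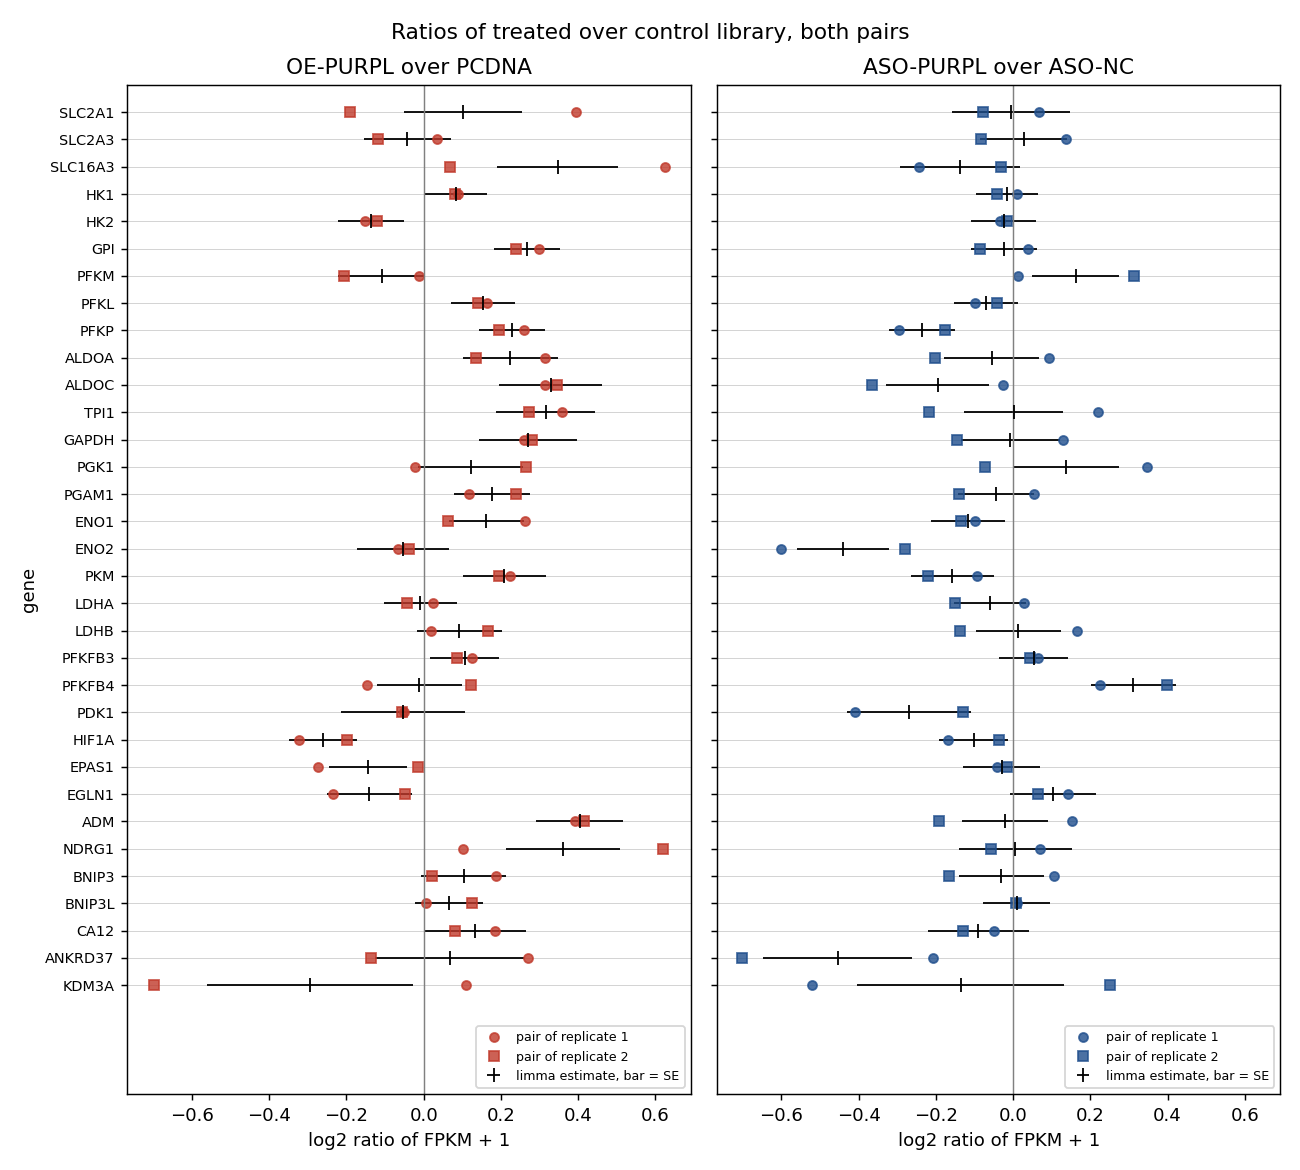
Log2 ratios of FPKM + 1 for the 33 tested genes, OE-PURPL over PCDNA on the left and ASO-PURPL over ASO-NC on the right, with a circle for the pair of replicate 1, a square for that of replicate 2 and the limma estimate with its standard error. ADM lies at 0.39 and 0.42 and ENO2 at -0.60 and -0.28, while KDM3A lies on both sides of 0 in each panel.

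The replicates of a group stand in separate tables, and they lay farther apart in the knockdown arm. Between replicates of the same group, the median absolute log2 difference over the tested genes of the list was 0.10 in OE-PURPL, 0.07 in PCDNA, 0.27 in ASO-PURPL and 0.26 in ASO-NC, with 0.16, 0.15, 0.33 and 0.29 over all genes in that order of groups. PFKM differed most, at 97.7 and 39.9 FPKM in ASO-PURPL and 96.9 and 31.9 FPKM in ASO-NC, so it differed far more between the replicates than between the groups. BNIP3, at 46.3 and 21.4 FPKM in ASO-PURPL and 43.0 and 24.2 FPKM in ASO-NC, did likewise. BNIP3 also has 39 pseudogene rows in the tables, which held 2.18% to 17.8% of the FPKM of gene and pseudogenes, so its own level is uncertain. In all, 17 genes of the list had pseudogene rows, and for GAPDH the 65 rows held at most 0.70%. For SLC2A3 they held 0.30% to 9.49%. The single pseudogene row of EGLN3 held 59.1% and 33.1% of the sum in ASO-PURPL and 1.95% and 29.4% in ASO-NC, so the level of EGLN3 is uncertain too.

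The largest differences in these genes lay between the control groups of the arms. ADM was higher in PCDNA than in ASO-NC, and PFKFB4 and NDRG1 were lower, each by at least 1 on the log2 scale in both replicates. NDRG1 no longer reached that size with a pseudocount of 5, with quantile normalization or with differences centred on the median, whereas ADM and PFKFB4 did. HK2 and PGAM1 came close to that size upward. PCDNA and ASO-NC stood in one table only for replicate 2, and in separately deposited tables for replicate 1, so the difference was not tested. What PCDNA and ASO-NC cells differ in besides the plasmid and the oligonucleotide is not given in the labels. Of the 33 genes, 1 (ADM) passed that size upward, or 3.03%, against 4.71% of all genes, and 2 (PFKFB4 and NDRG1) downward, or 6.06%, against 2.94%. In both replicates 9 genes (27.3%) were higher in PCDNA, against 35.7% of all genes, and 15 (45.5%) lower, against 35.1%. The median difference of the list was -0.06 in replicate 1 and -0.07 in replicate 2, against -0.05 and 0.05 over all genes.

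ADM stood at 396 and 396 FPKM in PCDNA, compared with 158 and 121 FPKM in ASO-NC, which is 2.51-fold and 3.26-fold higher (log2 difference 1.32 and 1.70). With OE-PURPL at 519 and 529 FPKM and ASO-PURPL at 175 and 106 FPKM, all 4 libraries of the overexpression arm lay above all 4 of the knockdown arm. PFKFB4 stood at 18.6 and 15.7 FPKM in PCDNA, compared with 54.5 and 45.3 FPKM in ASO-NC, log2 differences of -1.50 and -1.47, so that ASO-NC was 2.93-fold and 2.89-fold above PCDNA. NDRG1 stood at 13.2 and 11.7 FPKM in PCDNA, compared with 28.2 and 26.5 FPKM in ASO-NC (-1.04 and -1.11). ADM and NDRG1, both in the group of hypoxia-induced genes, differed in opposite directions between the same libraries. The cause of these differences was not tested.

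The enzymes differed by isoform. HK2, whose promoter is printed above, stood at 47.9 and 48.8 FPKM in PCDNA, compared with 24.9 and 23.6 FPKM in ASO-NC (0.92 and 1.02). Its relative HK1 stood at 66.3 and 62.9 FPKM in PCDNA, compared with 75.0 and 75.0 FPKM in ASO-NC (-0.18 and -0.25). PGAM1 stood at 393 and 374 FPKM in PCDNA, compared with 198 and 219 FPKM in ASO-NC (0.99 and 0.77), with 13 pseudogene rows that held at most 2.09%. PFKP had differences of 0.41 and 0.74 and ENO2 of 0.41 and 0.61. Lower in PCDNA were GPI (-0.53 and -0.47), ALDOC (-0.87 and -0.64) and SLC2A1, at 46.6 and 54.9 FPKM in PCDNA, compared with 95.0 and 74.0 FPKM in ASO-NC (-1.01 and -0.42). GAPDH had differences of 0.26 and -0.19, LDHA of -0.02 and 0.22, SLC16A3 of -0.88 and 0.38, and PFKM of -1.33 and 0.48, so for these 4 the replicates gave opposite signs. The enzymes of the pathway thus differed in both directions.

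Among the regulators, HIF1A stood at 112 and 110 FPKM in PCDNA, compared with 74.8 and 90.9 FPKM in ASO-NC (0.58 and 0.27), and EGLN1 at 15.6 and 14.9 FPKM, compared with 8.70 and 11.8 FPKM in ASO-NC. EPAS1 had differences of -0.06 and -0.50, PDK1 of -0.48 and -0.23 and PFKFB3 of 0.06 and -0.17. EGLN3 stood at 0.102 and 0.0562 FPKM in PCDNA, compared with 0.503 and 0.375 FPKM in ASO-NC, low in both. CA12 (-0.34 and -0.56) and ANKRD37 (-0.51 and -0.46) were lower in PCDNA in both replicates, BNIP3 differed in sign (-0.80 and 0.20), and KDM3A stood at 7.90 and 12.4 FPKM in PCDNA, compared with 7.48 and 6.06 FPKM in ASO-NC. The same control libraries differed in other programmes. The 18 interferon-stimulated genes listed had medians of 358 and 385 FPKM in PCDNA and 8.06 and 10.1 FPKM in ASO-NC. Of 18 mitosis genes 17 were higher in PCDNA in both replicates, against 35.7% of all genes. The part of these programmes in the differences of ADM, PFKFB4, NDRG1 and HK2 was not tested.

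Over all 8 libraries, 7 genes (21.2%) had the 4 libraries of the overexpression arm above the 4 of the knockdown arm, against 21.5% of all genes, so that share lay at the background. They were HK2, PFKP, PGAM1, ENO2, PKM, EGLN1 and ADM. The reverse held for 8 genes (24.2%), against 17.1% of all genes, namely SLC2A1, HK1, GPI, PFKFB4, PDK1, EPAS1, NDRG1 and CA12. For PKM the margin was narrow (1089 to 1296 FPKM in the overexpression arm, against 855 to 1073 FPKM in the knockdown arm), and for EPAS1 narrower still (34.5 to 42.1 FPKM against 42.6 to 49.7 FPKM). The other 18 overlapped. With quantile normalization PKM, EGLN1 and EPAS1 overlapped as well and LDHB no longer did, which left 13 genes apart in place of 15.

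**Figure D3:**
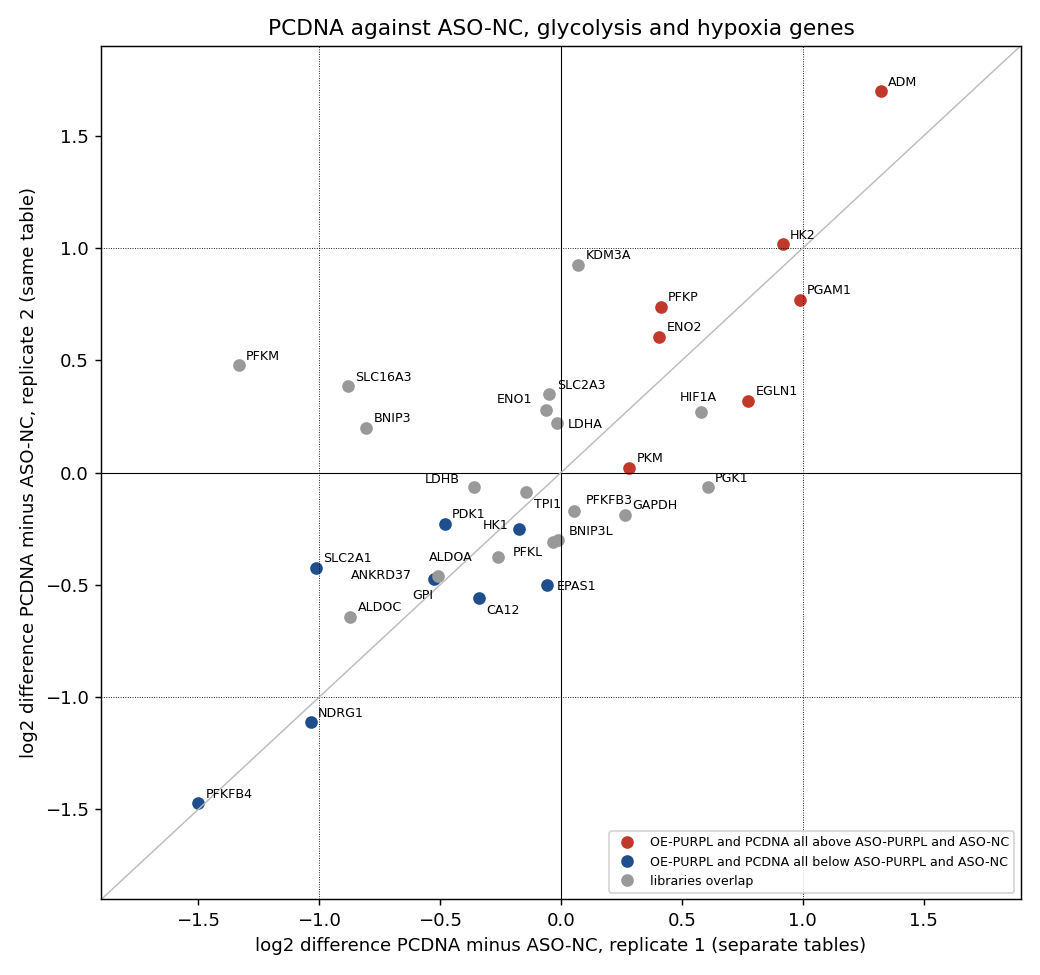
Log2 difference of FPKM + 1, PCDNA minus ASO-NC, in replicate 1 (horizontal, across separate tables) and replicate 2 (vertical, within a table) for the 33 tested genes, coloured by whether the 4 libraries of the overexpression arm lie all above, all below or among those of the knockdown arm. ADM stands at the upper right (1.32 and 1.70), PFKFB4 and NDRG1 at the lower left, and PFKM, SLC16A3 and BNIP3 lie off the diagonal with opposite signs.

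Shares within a gene family compare genes inside a library and so do not depend on how the tables were scaled. HK2 held 37.9% to 43.7% of the summed FPKM of HK1 and HK2 in the overexpression arm, against 23.9% to 24.9% in the knockdown arm. PFKP held 47.4% to 51.4% of the 3 phosphofructokinase genes in the overexpression arm, against 24.9% to 35.8% in the knockdown arm, where PFKM held 25.5% to 52.3% and split by replicate. PFKFB3 held 56.7% to 61.5% of the PFKFB3 and PFKFB4 sum in the overexpression arm, against 27.7% to 36.2% in the knockdown arm, so the more abundant of these enzymes was PFKFB3 in one arm and PFKFB4 in the other. HIF1A held 72.1% to 75.9% of the HIF alpha sum in the overexpression arm, against 60.9% to 64.6% in the knockdown arm. SLC2A3 held 21.0% to 25.6% of the sum of the 2 glucose transporters, against 14.8% to 15.5% in the knockdown arm. LDHA held 56.7% to 60.2% of both lactate dehydrogenase subunits, against 51.0% to 55.4% in the knockdown arm. ALDOA held 98.3% to 99.1% of the aldolase sum and ENO1 94.0% to 97.1% of the enolase sum over all 8 libraries. The arms did not overlap for the shares of HK2, PFKP, PFKFB3, HIF1A, SLC2A3 and LDHA, nor for EGLN1 in its sum with EGLN3. They overlapped for PFKM, ALDOA and ENO1, for BNIP3 in its sum with BNIP3L and for CA9 in its sum with CA12. No background was computed for shares. For the levels of all genes, the overexpression arm lay wholly above the knockdown arm in 21.5% and wholly below in 17.1%.

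**Figure D4:**
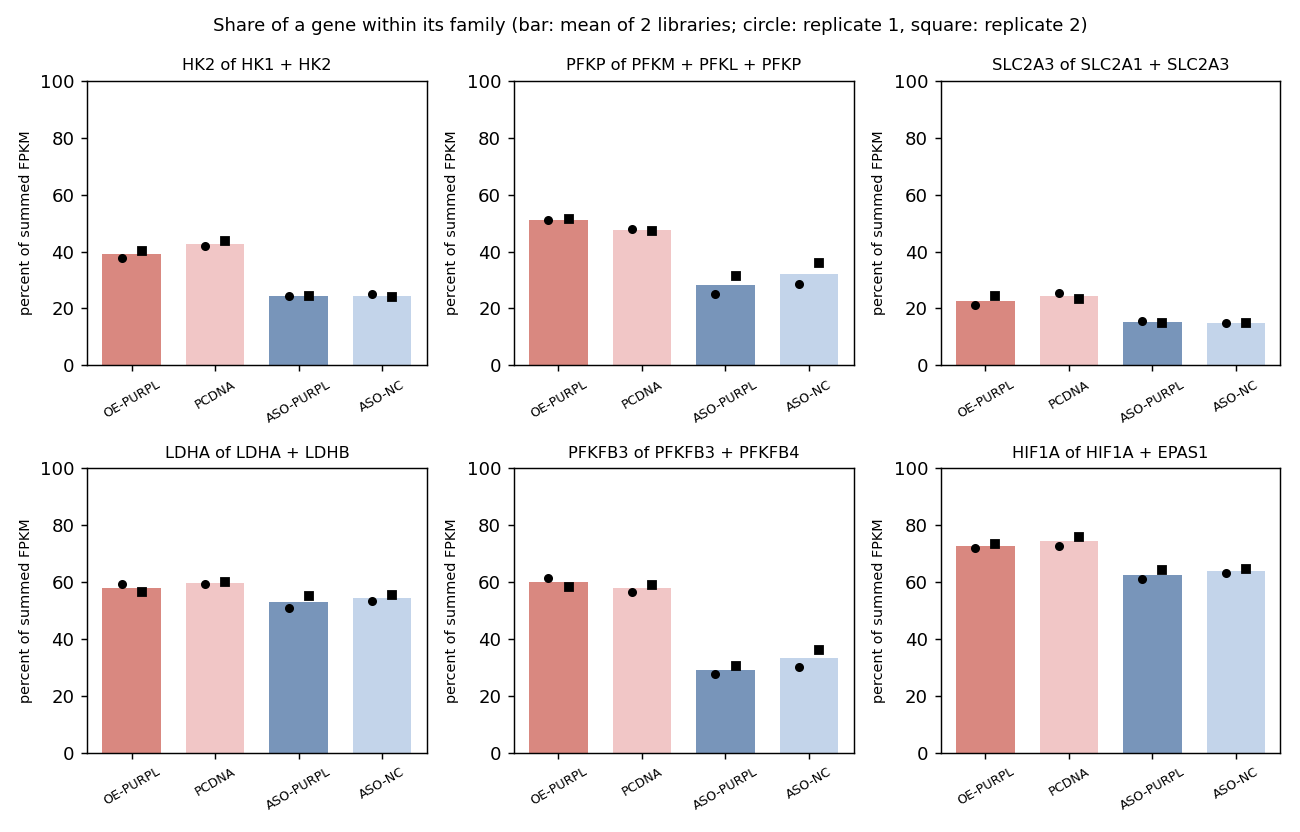
Percent of the summed FPKM of a family held by HK2, PFKP, SLC2A3, LDHA, PFKFB3 and HIF1A, with bars for the mean of the 2 libraries of each group and points for the libraries, on axes from 0 to 100%. PFKFB3 lies at 56.7% to 61.5% in OE-PURPL and PCDNA and at 27.7% to 36.2% in ASO-PURPL and ASO-NC. Only shares whose arms did not overlap are shown.

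Related genes outside the list gave no test result either. Over all tested genes the median log2 estimate was 0.003 after overexpression, with 32.6% higher and 31.1% lower in both pairs. After knockdown it was -0.04, with 19.3% higher and 33.4% lower. Of 42 other genes of glycolysis and pyruvate handling 27 were tested and 0 passed in either comparison, with a median log2 estimate of -0.06 after overexpression (7 higher and 13 lower in both pairs) and -0.07 after knockdown (4 and 10). Of 11 pentose phosphate genes 10 were tested and 0 passed, with medians of 0.11 (5 higher, 2 lower) and -0.08 (0 higher, 6 lower). Of 39 names of other HIF targets 33 were tested and 0 passed, with medians of 0.03 (14 higher, 11 lower) and -0.04 (10 higher, 13 lower). Of 18 names of HIF pathway regulators 15 were tested and 0 passed, with medians of 0.06 (6 higher, 5 lower) and -0.07 (0 higher, 6 lower). Between the control groups, 15 of the 33 other HIF targets were higher in PCDNA in both replicates and 12 lower, against 35.7% and 35.1% of all genes.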

How the data were processed

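RNA of BJ cells was sequenced in 8 libraries of 4 groups, grouped by the labels. A mouse line and knockdowns named in the design text are in no label and were not used. Per the submitters' processing notes the reads went through STAR and Cufflinks on hg38, without versions. The annotation and the use of strand are not given in the sources used here, so overlapping genes and near-identical copies are uncertain. The authors deposited 3 tables of FPKM, a unit inferred from Cufflinks and from sums that are neither CPM nor TPM. The replicate 1 pairs stand in a table each, with no value under 0.01 and the authors' deposited log2 column, which was not used. The last table holds replicate 2 of all groups. FPKM keep no read numbers, so depth is unknown.

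Of 60635 rows, 1264 repeated a name (the row of highest mean was used), and 1 gene with a cell that was no number was left out. Log2 ratios of FPKM + 1 were taken within table and replicate, which understates changes of low genes. Genes that averaged 1 FPKM or more across the 4 libraries of a comparison, in either of them, were tested with limma 3.58.1 in R 4.3.3 on the 4 ratios, with a coefficient per comparison, an eBayes trend, 2 residual and 3.34 prior degrees of freedom, and Benjamini-Hochberg adjustment over 14977 genes at 0.05, two-sided. Both comparisons share a single estimate of the spread per gene, so a gene has the same SE in both. The spread of the knockdown ratios thus enters the SE and p of the overexpression comparison, and the reverse. The script was tested on simulated data. An exact permutation of 2 against 2 libraries cannot go below p = 0.333, so none was run. The labels name no separate cultures, so p-values reflect only how far these libraries vary, possibly for technical reasons. Deviations of same-numbered libraries from their group means correlated at r = 0.14 (overexpression) and r = 0.49 (knockdown), and the tables pair them, so the replicate is the block.

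The genes, the related lists and the markers were chosen with earlier results of these data known, and their counts and medians are descriptions with no list test. Per-library values are given for the 5 genes with the largest ratios of equal sign in each comparison, those past 1 on the log2 scale in both replicates between the control groups, a lead gene per role, and others where a sentence turns on them, chosen after their values were seen. Promoters are from RefSeq (GRCh38.p14) and gene spans from GENCODE 29. Alternatives were the pseudocount, the filter, the eBayes trend, separate fits, no replicate block with quantile normalization, centring, summed rows, removal of a length and GC trend, and leaving out each pair.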

Additional observations from a re-analysis of the deposited data

How the results depend on the processing

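Under every alternative run, 0 genes of the list passed the test in either comparison. Over all genes, the 4 that passed after overexpression became 0 with each comparison fitted alone, 1 with the length and GC trend removed, 2 with a pseudocount of 5, and 0 to 1 with a pair left out. After knockdown the count of 0 became 9 without a filter, 1 with a pseudocount of 0.1, and 1 with quantile normalization and no replicate block. The median of the list after overexpression, 0.10, was 0.064 with the length and GC trend removed, 0.011 with quantile normalization and no replicate block, and 0.08 to 0.12 with a pair left out. Between the control groups 3 genes differed by 1 or more in both replicates. In replicate 1 alone, across separate tables, 5 did (SLC2A1 and PFKM added). In replicate 2 alone, within a table, 4 did (HK2 added). With a pseudocount of 5, quantile normalization or centring, 2 did in both replicates, without NDRG1. Estimates near 0 turned sign. After overexpression, LDHA was 0.0017 and PDK1 0.19 with the trend removed, and with a pair left out SLC2A1 ran from -0.19 to 0.40 and LDHA from -0.042 to 0.025. After knockdown, with the trend removed, SLC2A1 was 0.038, HK2 0.025 and GAPDH 0.047. Centred on the median, SLC2A1 was 0.034, HK2 0.015 and GAPDH 0.032, and with quantile normalization and no replicate block SLC2A1 was 0.050 and HK2 0.029. With a knockdown pair left out SLC2A1 ran from -0.079 to 0.068, GAPDH from -0.14 to 0.13 and LDHA from -0.15 to 0.029. The cause of these shifts was not tested. The replicate block was dropped only together with quantile normalization, so its own effect was not tested. With 2 pairs per comparison and unknown depth, small differences in this list were not resolved.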

Other observations

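Among the related genes outside the list, HK3, the hexokinase of myeloid cells, stood at 2.78 and 1.13 FPKM in ASO-PURPL, compared with 0.454 and 0.199 FPKM in ASO-NC, with log2 ratios of 1.38 and 0.83 (estimate 1.10, SE 0.24, adjusted p = 0.582, limma). The FPKM + 1 scale understates differences at such levels. HK3 passed the filter on low values only through the ASO-PURPL libraries, where it was high. Its estimate and p-value are therefore not independent of that filter, and no conclusion is drawn from them. Its values in OE-PURPL were 0.398 and 0.218 FPKM, compared with 0.0415 and 0 FPKM in PCDNA. ENO3, the muscle enolase, stood at 4.58 and 3.07 FPKM in PCDNA, compared with 11.4 and 7.57 FPKM in ASO-NC (-1.15 and -1.07), while the neuronal enolase ENO2 of the list stood the other way between these groups. Of the other HIF targets, TGFBI, a secreted matrix protein that TGF-beta also induces, stood at 62.3 and 58.3 FPKM in PCDNA, compared with 140 and 188 FPKM in ASO-NC (-1.16 and -1.67). BHLHE41, a transcriptional repressor, stood at 0.571 and 0.688 FPKM in PCDNA, compared with 2.78 and 2.41 FPKM in ASO-NC (-1.27 and -1.02). None of these differences between control groups was tested.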
